A study of Zea mays with 4 samples.

Results

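HB115 is a maize transcription factor whose symbol follows the maize naming of homeobox proteins. Its binding to naked genomic DNA was measured by DNA affinity purification sequencing (DAP-seq), and its peak list held 936 sites, all of which are described here. They made up 1.39% of the 67130 peaks listed for the 4 factors of the series. Beyond the calling of the peaks itself, no measured value chose the sites, since the whole deposited HB115 list was taken. DAP-seq was run with 1 library per factor, for HB115, NACTF49, NKD1 and NKD2, on DNA of the inbred line B73 taken from seedlings at 14 days and sheared to about 200 bp. All of these libraries used naked DNA and protein made in vitro with a HALO tag. There was no chromatin and no endosperm nucleus in the assay, so a site shows where the protein can bind DNA and not whether it does so in the plant. HB115 and NACTF49 were read with single reads of 75 bp and are placed on build v3 of the B73 genome. NKD1 and NKD2 are placed on build v4 by their file names, so that no position was compared with them.

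Homeobox proteins carry a homeodomain, a small DNA-binding fold that contacts short, often AT-rich sequences, and many of them act in plant development. NAC proteins, to which the symbol of NACTF49 refers, are a plant-specific family with a different DNA-binding domain, and members of it act in endosperm, senescence and stress responses. The study used DAP-seq on selected transcription factors downstream of the endosperm regulators NKD1, NKD2 and O2 to extend its gene networks. The paper's text gives other factors as examples and does not mention HB115 or NACTF49. Each HB115 site is an interval of 201 bp whose centre is the summit, the base at which the peak caller placed the binding event. Each site carries a signal, which is the strength that the caller gave to the event and has no unit, and a q-value, which is the caller's own significance after correction over events. There were no replicates, so no value below has a replicate error, and intervals cover counting error only. Read totals are not in the peak lists, and the depth of each library is unknown.

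The called HB115 sites were narrow in strength, with a short strong tail. Events too weak to be called are absent from the list, so its low end is cut. The signal ran from 14.3 to 71.2 with a median of 22.9 (95% interval 22.0 to 23.0 from order statistics, n = 936). The middle 50% of the sites lay between 20 and 26.5, and 603 sites (64.4%) had a signal of at least 20 and under 30. A signal of 30 or more was reached by 120 sites (12.8%), of 40 or more by 19 (2.03%) and of 50 or more by 4. The strongest site was thus 3.11 times the median. Many sites stood close to the lowest −log10 q of the list, which was 2.02. In 272 sites (29.1%) the −log10 q was under 2.1, whereas 114 sites reached 3, 40 reached 4 and 9 reached 5. At the weak end, the lowest signal of 14.3 was shared by sites on chromosome 2 from 222537996 to 222538196 and on chromosome 4 from 130531072 to 130531272. The next lowest, 14.5, was on chromosome 9 from 25987418 to 25987618, and 3 sites followed at 14.8. All 6 had a −log10 q of 2.08.

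The strongest HB115 site spanned 225685699 to 225685899 on chromosome 4, where the signal was 71.2 and the −log10 q 5.23. Next came a site on chromosome 3 from 26519584 to 26519784, whose signal was 63.9 and whose −log10 q was 6.73. A site on chromosome 10 from 113325372 to 113325572 had a signal of 63.0 and the highest −log10 q of the list, 7.37. These 3 sites stood above a gap in the list, as no other site exceeded a signal of 50. That value was reached on chromosome 3 from 203648882 to 203649082 at a −log10 q of 6.58. A signal of 49.4 was found on chromosome 9 from 20877834 to 20878034, and one of 49.0 on chromosome 5 from 183776098 to 183776298. The site on chromosome 6 from 121573501 to 121573701 had a signal of 47.7 and was the only member of the strongest 10 with another HB115 summit within 1 kb. The last 3 of the strongest 10 had high signals but modest q-values. They were on chromosome 4 from 225710467 to 225710667 (signal 46.0, −log10 q 2.04), on chromosome 2 from 148282739 to 148282939 (45 and 2.92) and on chromosome 4 from 225691073 to 225691273 (45 and 2.45).

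Strength and q-value were thus related but did not rank the sites identically. Across the 936 sites, which come from 1 library and are not independent, Spearman's rho between signal and −log10 q was 0.584. Of the 10 strongest sites by signal, 6 were also among the 10 with the lowest q-values. Of the 19 sites with a signal of 40 or more, 4 had a −log10 q under 3. In the whole list only 114 of 936 sites reached 3, so strong sites reached it more often than the list did.

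**Figure D1:**
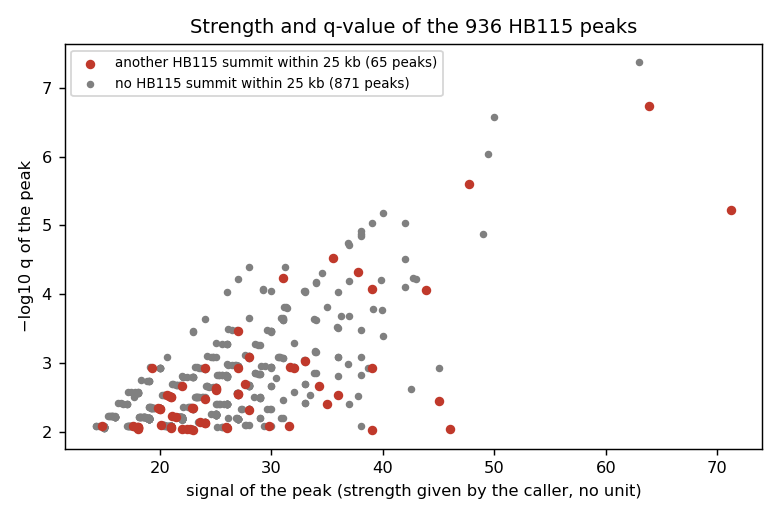
Signal (horizontal axis, no unit) and −log10 q (vertical axis) of each of the 936 HB115 peaks, 1 point per peak. Red points are the 65 peaks with another HB115 summit within 25 kb and grey points the other 871; several red points, with signals of 45 and 46.0 among them, lie far to the right at a −log10 q under 3.

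A number of HB115 sites lay close to each other. A neighbouring HB115 summit was found within 1 kb for 12 sites, or 1.28% (95% Wilson interval 0.735 to 2.23%), within 5 kb for 30 sites (3.21%, 2.25 to 4.54%) and within 25 kb for 65 sites (6.94%, 5.49 to 8.76%). The typical site was far more isolated, with a median distance to the nearest HB115 summit of 495 kb and quartiles of 185 and 1139 kb. The 12 sites within 1 kb formed 6 pairs. The tightest pair was on chromosome 6, with summits at 121573601 and 121573709, only 108 bp apart, so that their intervals overlapped. Its signals of 47.7 and 34.3 were both above the 94th percentile of the list. A pair 335 bp apart at 34164185 and 34164520 on the same chromosome had signals of 22.7 and 19.3, near and below the median. On chromosome 1, summits at 217631609 and 217632189 were 580 bp apart with signals of 27.0 and 24.0, and summits at 247111185 and 247112100 were 915 bp apart with signals of 27.6 and 29.8. On chromosome 9, summits at 128972286 and 128972878 were 592 bp apart with signals of 23.0 and 18. The pair on chromosome 4 at 55437166 and 55437769 was 603 bp apart, with signals of 31.0 and 27.0 and −log10 q of 4.23 and 3.46. It was the only pair within 1 kb in which both sites had a −log10 q above 3. The 6 spacings, 108 to 915 bp, were all different.

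To find the distance over which HB115 sites kept company, all pairs of summits were counted by distance, and the number per kb was divided by that at 500 to 1000 kb. Pairs up to 1 kb apart were 10.5 times as frequent (6 pairs, 95% Poisson interval 3.84 to 22.8), those at 1 to 5 kb 3.92 times (9 pairs, 1.79 to 7.44), those at 5 to 20 kb 2.21 times (19 pairs, 1.33 to 3.45) and those at 20 to 50 kb 1.86 times (32 pairs, 1.27 to 2.62). From 50 kb on the intervals included 1, with a ratio of 1.19 (0.820 to 1.66) at 50 to 100 kb. For NACTF49 the same ratios were 3.57 (2.95 to 4.28) up to 1 kb, 1.92 at 1 to 5 kb, 1.23 at 5 to 20 kb and 1.11 (1.05 to 1.18) at 20 to 50 kb. The HB115 ratio was higher in each of these classes. Its interval overlapped that of NACTF49 up to 5 kb and lay above it at 20 to 50 kb. At 5 to 20 kb its lower limit of 1.329 was barely above the NACTF49 upper limit of 1.328. Pairs that share a site are not independent, so these intervals are too narrow.

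**Figure D2:**
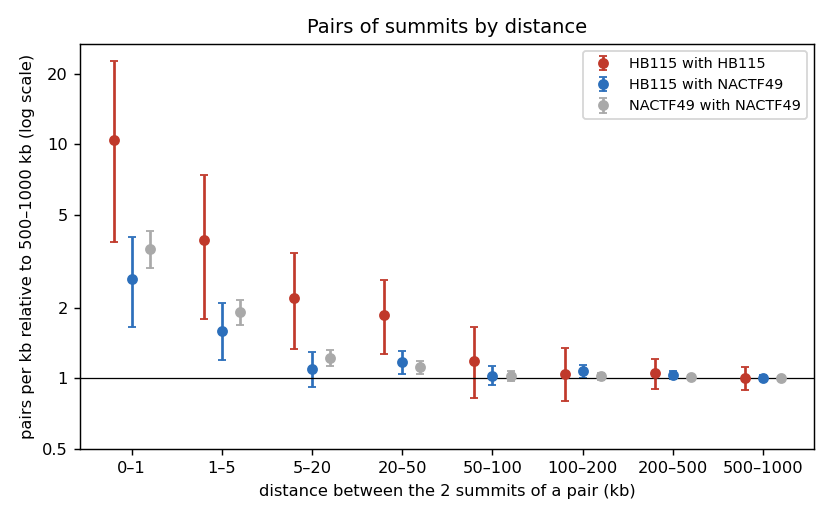
Number of summit pairs per kb of distance, relative to the number at 500 to 1000 kb (vertical axis, log scale), by the distance between the summits in kb (horizontal axis). Red is HB115 with HB115, blue HB115 with NACTF49 and grey NACTF49 with NACTF49, with 95% Poisson intervals; the red points fall from 10.5 to 1.86 between the first class and 20 to 50 kb.

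Linking HB115 summits no more than 25 kb apart gave 30 groups, of which 26 had 2 sites, 3 had 3 and 1 had 4. This distance was chosen after the values were seen. The group of 4 held the strongest site of the list. Its summits lay at 225685799, 225691173, 225705754 and 225710567 on chromosome 4, a span of 24768 bp, with signals of 71.2, 45, 35.0 and 46.0. It therefore held 3 of the 10 strongest sites and no site under a signal of 35.0. The q-values of the group did not follow the signals, with −log10 q of 5.23, 2.45, 2.40 and 2.04. The nearest NACTF49 summit was 117 to 141 kb away from all of them. Without this group the ratios of pair frequency were 10.6 up to 1 kb (6 pairs, 3.89 to 23.1), 3.53 at 1 to 5 kb (8 pairs, 1.53 to 6.96), 1.77 at 5 to 20 kb (15 pairs, 0.989 to 2.91) and 1.83 at 20 to 50 kb (31 pairs, 1.24 to 2.59). The interval at 5 to 20 kb then included 1 and overlapped that of NACTF49 (1.13 to 1.33). At 20 to 50 kb it still lay above that of NACTF49.

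**Figure D3:**
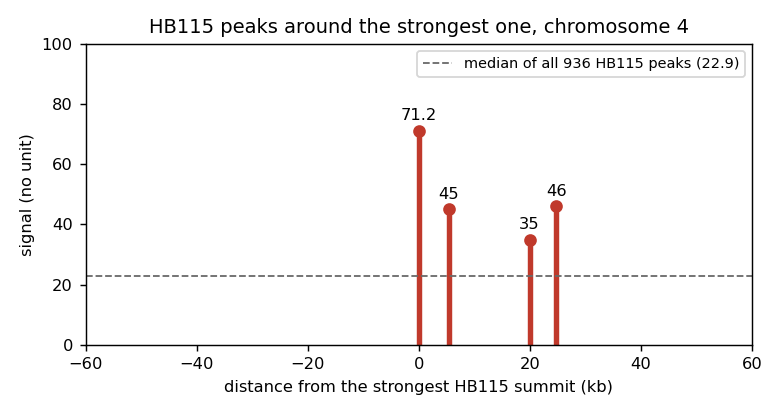
HB115 peaks within 60 kb of the strongest HB115 summit, with the distance from that summit in kb (horizontal axis) and the signal (vertical axis, no unit); the dashed line is the median of all 936 peaks. The 4 peaks have signals of 71.2, 45, 35.0 and 46.0, all above the median of 22.9, and the other peaks of the list lie outside the range shown.

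Other groups also held strong sites. On chromosome 3, the second strongest site (signal 63.9) had a neighbour 4884 bp away with a signal of 39.0. On chromosome 7, 3 sites within 20253 bp had signals of 33.0, 18 and 43.9. The median signal of the 65 sites with a neighbour within 25 kb was 24.0 (22.7 to 27.0), against 22.7 (22.0 to 23.0) for the 871 sites without one, and the intervals overlapped. Sites with a signal of 40 or more made up 6 of the 65 (9.23%) and 13 of the 871 (1.49%). Of these 6, 3 belong to the group on chromosome 4. The split was made after the values were seen and the difference was not tested.

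The same spacing recurred to the base in weaker sites, which were singled out after their values were seen. Among the 100 pairs of HB115 summits within 100 kb, 1 spacing occurred more than once. It was 7186 bp, between summits at 112174244 and 112181430 on chromosome 2 and again between 77750824 and 77758010 on chromosome 3. The signals of these 4 sites were 20.1 and 21.1 on chromosome 2 and 20 and 19.8 on chromosome 3. A further 2 pairs differed in spacing by 1 bp: 26566 bp on chromosome 3, from 122703776 to 122730342, and 26567 bp on chromosome 4, from 192894791 to 192921358. The signals of this further pair on chromosome 3, 28.5 and 25.6, were above the median of 22.9. Those of the pair on chromosome 4 were 21.0 and 18. How often such matches of spacing arise by chance was not tested, and the sequence at these sites was not examined.

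The density of HB115 sites along the genome was compared over 7 of the 10 chromosomes. Chromosomes 1, 5 and 8 were left out of all densities because each had a long stretch without HB115 sites. These stretches ran from 83497604 to 188762592 on chromosome 1 (105 Mb), from 11359767 to 143599303 on chromosome 5 (132 Mb) and from 16840183 to 169688964 on chromosome 8 (153 Mb), and they held 11, 22 and 4 NACTF49 summits. NACTF49 was thus nearly absent there too, as it had 4.39 summits per Mb on the other 7 chromosomes. On the other chromosomes the longest stretch without an HB115 site was 15.8 Mb. Chromosome 8 had only 7 HB115 sites in all. The 7 remaining chromosomes held 770 HB115 sites, or 0.565 per Mb. The density was 0.616 per Mb on chromosome 4, 0.604 on chromosome 3, 0.556 on chromosome 6, 0.551 on chromosome 2, 0.542 on chromosome 10, 0.536 on chromosome 9 and 0.516 on chromosome 7. The counting error of a single chromosome was 0.0481 to 0.0602 per Mb (1 SD). Chromosomes 4 and 7, the extremes, differed by 0.100 per Mb with a counting error of 0.0740 per Mb (1 SD), and were picked after the values were seen. On these chromosomes there were 11.8 to 13.9 HB115 sites for each 100 NACTF49 sites. The median signal was 22.0 to 24.0 on every chromosome, chromosomes 1, 5 and 8 included.

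With each chromosome divided into 10 bins of equal length, the share of the 770 sites in a bin ranged from 7.40 to 13.1%. The bin at 40 to 50% of the length held the most, 101 sites (13.1%, 10.9 to 15.7%), against 9.76% of NACTF49 sites (9.04 to 10.5%). The bin at 30 to 40% held the fewest, 57 sites (7.40%, 5.76 to 9.47%), against 9.95% of NACTF49 sites (9.22 to 10.7%). The remaining 8 HB115 intervals included 10%, the share under even spread. The share in the bin at 40 to 50% ranged from 9.92% on chromosome 2 to 18.1% on chromosome 6, and it was above 10% on 6 of the 7 chromosomes. With 10 bins examined, the extremes were picked after the values were seen. The outer 20% at each end, together 40% of the length, held 327 HB115 sites (42.5%, 39.0 to 46.0%) and 40.6% of NACTF49 sites (39.3 to 41.8%). Both intervals included 40%. Among the strongest 50% of HB115 sites the outer 40% held 179 of 381 (47.0%, 42.0 to 52.0%), an interval above 40%. The median signal of the 10 bins ranged from 21.4 to 25. It was 25 (23 to 26) at 10 to 20% of the length and 21.5 (20.5 to 22.1) at 30 to 40%, intervals that did not overlap, and these bins were picked after the values were seen and the difference was not tested.

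**Figure D4:**
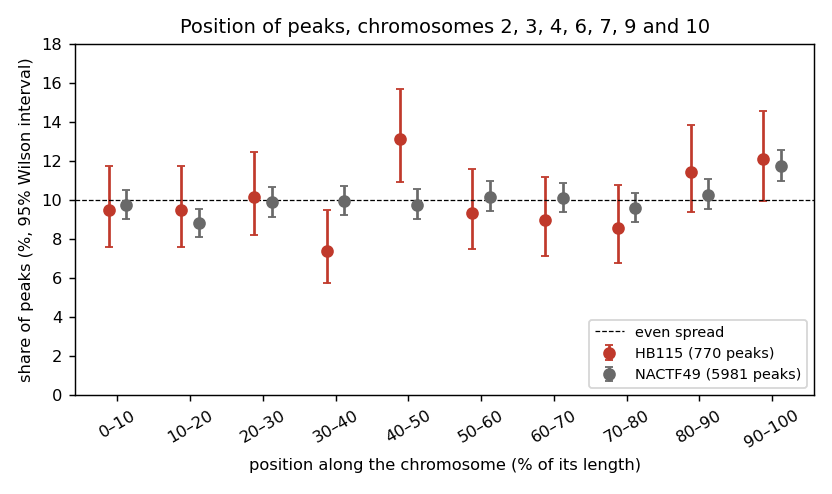
Share of peaks (vertical axis, %, with 95% Wilson intervals) in each of 10 bins of the chromosome length (horizontal axis, % of length), summed over chromosomes 2, 3, 4, 6, 7, 9 and 10. Red is HB115 (770 peaks), grey is NACTF49 (5981 peaks) and the dashed line is even spread; the HB115 share is 7.40% at 30 to 40% of the length and 13.1% at 40 to 50%.

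In windows of 1 Mb on these 7 chromosomes, 819 of 1366 windows (59.96%) held no HB115 site, 378 held 1, 125 held 2, 34 held 3 and 10 held 4, which was the highest number. A Poisson distribution of the same mean would give 777.4 windows with 0 sites, 23.2 with 3 and 3.27 with 4. The variance of the counts was 1.18 times their mean. As the 10 windows with 4 sites were tied, no order among them can be given. The first of them along the genome began at 112000001, 215000001 and 222000001 on chromosome 2, where the sites were spread over 375 to 386 kb. The window on chromosome 4 from 225000001 to 226000000, which holds the group of strong sites, had the smallest span of the 10, 24.8 kb. The next smallest was 210.6 kb, in the window on chromosome 3 from 47000001 to 48000000.

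The positions of HB115 sites were next compared with those of NACTF49, the other factor on build v3, with 7388 sites. The HB115 summits were also moved along the chromosomes by 20 fixed distances, 100 kb to 1 Mb in each direction, which keeps their spacing and regional density. A NACTF49 summit lay within 1 kb of 22 HB115 sites, or 2.35% (1.56 to 3.53%), against 0.849% of the shifted summits, where the number ranged from 3 to 12 sites. Within 5 kb the number was 72 (7.69%, 6.15 to 9.58%), against 4.23% and 26 to 54 sites. Within 20 kb it was 180 (19.2%, 16.8 to 21.9%), against 15.6% and 127 to 171 sites. Within 50 kb it was 352 (37.6%, 34.6 to 40.8%), against 34.9% and 299 to 359 sites. The ratios to the shifted mean were 2.77, 1.82, 1.23 and 1.08, and the observed number was reached by 0, 0, 0 and 1 of the 20 shifts. The shifts describe these 2 lists, and with 1 library per factor there is no test of a difference. The sites within 20 kb beyond those expected from the shifts, 33.8 in number, were nearly all within 5 kb, where the excess was 32.5. Between 5 and 20 kb there were 108 HB115 sites, against a shifted mean of 107. Sites with a nearer NACTF49 summit cannot be counted in that class. All pairs of an HB115 and a NACTF49 summit were also counted, relative to 500 to 1000 kb. The ratio was 1.09 (0.918 to 1.295) at 5 to 20 kb and 1.17 (1.04 to 1.31) at 20 to 50 kb. It was 1.03 (0.933 to 1.13) at 50 to 100 kb and 1.07 (1.004 to 1.15) at 100 to 200 kb. These pair intervals are also too narrow. The median distance to the nearest NACTF49 summit was 76.4 kb, inside the range of the shifts (74.1 to 90.03 kb).

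**Figure D5:**
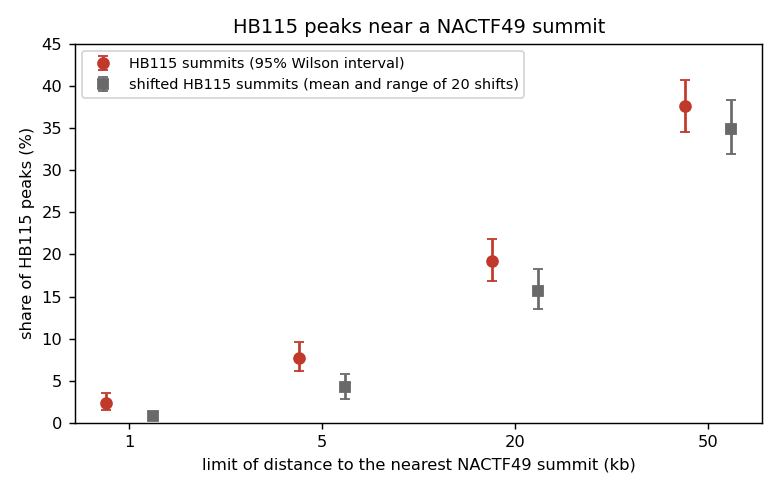
Share of the 936 HB115 peaks (vertical axis, %) with a NACTF49 summit within 1, 5, 20 and 50 kb (horizontal axis). Red points are the observed HB115 summits with 95% Wilson intervals and grey squares the mean of 20 fixed shifts with their lowest and highest; the observed share is 7.69% at 5 kb, where the shifts average 4.23%.

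A second background, the share of chromosome length near a NACTF49 summit, gave similar values. It is not independent of the first, because shifted summits sample that same length. On the 7 chromosomes without the long stretches, 2.60% of the 770 HB115 sites lay within 1 kb of a NACTF49 summit (1.69 to 3.98%), whereas 0.866% of the chromosome length did. The shares were 8.05% of sites and 4.20% of length for 5 kb, 19.7% and 15.6% for 20 kb, and 37.7% and 34.1% for 50 kb. Within 5 kb the number was above the shifted mean of its own chromosome on 7 of 10 chromosomes. The exceptions were chromosome 9 with 3 sites, and chromosomes 5 and 8 with 0 sites each. Their shifted means were 3.55, 2.20 and 0.300. Chromosome 10 had 10 sites where the shifts averaged 2.95, and chromosome 3 had 14 where they averaged 5.25. From the side of NACTF49 the close sites were few, as 22 of 7388 summits (0.298%, 0.197 to 0.451%) had an HB115 summit within 1 kb and 75 (1.02%, 0.811 to 1.27%) within 5 kb.

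Of the 22 HB115 sites with a NACTF49 summit within 1 kb, 5 were within 100 bp. The closest was on chromosome 6 from 11239048 to 11239248, 3 bp from a NACTF49 summit, and both were strong, with a signal of 38.0 for HB115 (percentile 96.8 of its list) and 32.0 for NACTF49 (percentile 95.9). At 7 bp, on chromosome 3 from 51610021 to 51610221, an HB115 signal of 21.0 stood beside a NACTF49 signal of 32.0. The site at 18 bp, on chromosome 2 from 25095101 to 25095301, paired an HB115 signal of 24.0 with one of the weaker NACTF49 signals, 13.9 (percentile 5.78). At 41 bp, on chromosome 1 from 238764331 to 238764531, the HB115 signal of 17.5 was at percentile 6.68 and the NACTF49 signal was 22.0. The site at 51 bp, on chromosome 6 from 14790401 to 14790601, had an HB115 signal of 21.9 and a NACTF49 signal of 50, at percentile 99.6 of that list.

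The next sites in order of distance were at 117 to 270 bp. On chromosome 2 from 215478102 to 215478302, an HB115 signal of 39.1 with a −log10 q of 3.78 lay 117 bp from a NACTF49 signal of 28.9. On chromosome 10 from 26674685 to 26674885, an HB115 signal of 24.8 lay 234 bp from a NACTF49 signal of 45, at percentile 99.3. A site on chromosome 7 from 105717144 to 105717344 had an HB115 signal of 21.1 at 245 bp, and a site on chromosome 4 from 39677382 to 39677582 had one of 28.0 at 246 bp. Their NACTF49 signals were 27.0 and 22.8. On chromosome 10 from 96232544 to 96232744, a signal of 33.0 lay 270 bp from a weak NACTF49 summit of 16.0. The remaining 12 sites were at 324 to 875 bp, with HB115 signals of 16.0 to 27.0 and NACTF49 signals of 15 to 27.1. Only the site at 117 bp had an HB115 −log10 q above 3.

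HB115 sites near NACTF49 were of ordinary strength for HB115. The median HB115 signal was 23.5 (21.1 to 26.0) for the 22 sites within 1 kb and 22.9 (22.0 to 23.0) for the other 914. It was 23.0 (22.0 to 24.8) for the 72 sites within 5 kb and 22.9 (22.0 to 23.0) for the other 864. By HB115 signal from the weakest 25% to the strongest 25% of the list, the share within 5 kb was 6.41, 7.27, 9.83 and 7.27%. Their intervals all overlapped. Of the 19 sites with a signal of 40 or more, 0 had a NACTF49 summit within 5 kb, and the nearest was at 14.0 kb. By the approximate rule of 3 counts, not a Wilson interval, a count of 0 allows a share of up to 15.8%. The share of all 936 sites within 5 kb, 7.69%, lies below that limit, so the 0 does not set the strong sites apart. The NACTF49 partners within 1 kb were stronger than the middle of their own list. Their median percentile was 77.6 (62.0 to 91.1) for the 22 sites within 1 kb and 60.1 (49.0 to 71.5) for the 72 within 5 kb. With the NACTF49 list divided by signal, the strongest 50% gave 18 HB115 sites within 1 kb, where shifts averaged 3.90. The weakest 50% gave 4, where shifts averaged 4.15. Within 5 kb the numbers were 45 against 19.4 and 28 against 21.3. The division into the weakest 50% was added after the values were seen, and the difference between the divisions was not tested.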

How the data were processed

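Peak lists of 1 library per factor were used as deposited. Per the methods, the authors trimmed reads with Trimmomatic, mapped them with Bowtie2, kept mapping qualities above 30 with SAMtools and called events with GEM, after which events of a HALO-GST control and listed problem regions were removed. The methods name build v4, whereas the HB115 and NACTF49 file names and the submitters' processing notes name build v3, which was taken here; the conflict was not settled from sequence. The deposited signal is the caller's strength, not scaled between libraries, and each deposited list also gives the caller's p-value and q-value on the −log10 scale.

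The summit was the interval start plus the peak offset, printed 1-based. Chromosome length was the largest end in the HB115 and NACTF49 lists. Neighbours, bins, windows, and distances to NACTF49 at 1, 5, 20 and 50 kb were computed in Python 3.11.15 with numpy 2.4.6, pandas 2.3.3 and scipy 1.17.1, and shares carry 95% Wilson intervals. The 20 shifts were fixed distances, wrapped at chromosome ends. The code was tested on simulated data. Named sites are the 10 strongest, the 5 weakest with ties, all pairs within 1 kb, sites within 1 kb of NACTF49 and the 3 fullest windows of 1 Mb. Members, limits and lists were chosen with earlier results of these data known. Alternatives used stricter lists, other limits, fewer chromosomes and shifts of 2 to 20 Mb. Genome sequence and gene annotation of build v3 were not used here, so that motifs and genes at the sites were not analysed here.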

Additional observations from a re-analysis of the deposited data

How the results depend on the processing

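Of 35 alternatives to 9 results, 24 stayed within the limits set for the result, 10 moved beyond them and 1 turned the direction. The limits were the counting error of the result, except for the 10 strongest sites, where they were fixed beforehand without a counting error. The number of HB115 sites near NACTF49 relative to the shifts kept its direction at all 4 limits when HB115 was restricted to its strongest 50%, without chromosomes 1, 5 and 8, and with shifts of 2 to 20 Mb. Within 50 kb, however, the interval included 1 for all sites (1.08, 0.989 to 1.17) and for the strongest 50% of HB115 (1.08, 0.955 to 1.21). It also did so without chromosomes 1, 5 and 8 (1.09, 0.989 to 1.19), but not with shifts of 2 to 20 Mb (1.10, 1.01 to 1.195). With the strongest 50% of NACTF49 the ratio was higher, at 4.62 within 1 kb, 2.31 within 5 kb, 1.44 within 20 kb and 1.18 within 50 kb. With the weakest 50%, added after the data were seen, it was 0.964 (0.375 to 2.47) within 1 kb, which reverses the direction on 4 sites. It was 1.31 (0.913 to 1.885) within 5 kb, 1.085 (0.887 to 1.32) within 20 kb and 1.07 (0.946 to 1.21) within 50 kb. All of these intervals included 1. The share of HB115 sites with a neighbour was 0.427% within 500 bp and 3.21% within 5 kb, by construction of the limit. The share in the outer 20% relative to length was 1.18 for the strongest 50% of HB115 (47.0% of sites, 42.0 to 52.0%), an interval above the 40% of even spread, against 1.06 for all, whose interval included it. The median signal was 31.2 when sites with a q-value above 0.001 were left out, and ranking by q kept 6 of the 10 strongest sites. Leaving out the chromosome 4 group, added after the data were seen, gave a median signal of 22.9 and a neighbour share of 1.29%. Neither value could move much, because the group has only 4 sites and none has a neighbour within 1 kb. These 2 alternatives therefore say little about the results. No paired analysis was possible because only 1 library was made for HB115. With unknown depth and no replicates, neither the number of sites nor their signal can be given an error for the factor.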
